A study of Mus musculus with 4 samples.

Results

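The 10 genes described here encode enzymes that build triglyceride from glycerol-3-phosphate and lipases that take it apart again. They were chosen by symbol from 24625 gene models, and each of the 10 has a single row in the deposited count tables. Agpat9, Gpam, Agpat2, Lpin1, Lpin2, Dgat1 and Dgat2 act in synthesis, and Pnpla2, Lipe and Mgll in breakdown. Agpat9 is the older symbol of Gpat3, and the older one is kept here because the files use it.

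RNA was sequenced from peritoneal macrophages of C57BL/6J mice fed a high-fat diet with 60% of its kilocalories from fat (2 libraries), against mice fed standard chow, which the sample labels call the control diet (2 libraries). Both diets lasted 12 weeks, and every mouse also received an intraperitoneal injection of 3% thioglycollate medium 4 days before its cells were collected, so the cells of both groups are macrophages drawn into an irritated peritoneal cavity. Chow is not a purified diet matched to the high-fat one. The sources used here do not give the sex or age of the mice, the number of mice behind each library or whether cells were pooled, so the p-values measure the spread between these libraries, which may be technical. Total RNA was depleted of ribosomal RNA before sequencing.

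Triglyceride is made on a glycerol backbone. A glycerol-3-phosphate acyltransferase adds the first fatty acid, a 1-acylglycerol-3-phosphate acyltransferase the next, a lipin removes the phosphate to give diacylglycerol, and a diacylglycerol acyltransferase adds the last fatty acid. Adipose triglyceride lipase, hormone-sensitive lipase and monoglyceride lipase then release the fatty acids one after another from the stored droplet. Macrophages that take up much lipid store it in such droplets, and their first intermediates also feed phospholipid synthesis.

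Totals over genes were 45658551 and 40527591 counts in high-fat replicates 1 and 2, and 39846646 and 39347347 counts in control replicates 1 and 2. Levels are given as CPM, the usual per-library scaling of counts, here to totals adjusted by TMM, the trimmed-mean method of edgeR. Macrophage markers (8 genes) were abundant in all libraries. They summed to 19700 and 24100 CPM in high-fat replicates 1 and 2, against 26500 and 25400 CPM in control replicates 1 and 2. Lyz2 made up most of each sum, at 16400 and 21000 CPM with high-fat diet, against 22900 and 22100 CPM with control diet. Of the 8 genes, 5 lay lower in both high-fat libraries and 3 overlapped between the diets, against 24.9% lower among all genes tested. Of 8 adipocyte markers, Lep, Cfd and Adrb3 had no count in any library and none of the 8 reached 1 CPM in any, although several of the 10 enzymes are abundant in fat cells. Summed fibroblast markers (7 genes) were at 169 and 84.4 CPM in the high-fat libraries, against 19.9 and 27.2 CPM in the control libraries. Summed B cell markers (8 genes) were at 64.8 and 163 CPM in the high-fat libraries, against 63.1 and 60.4 CPM in the control libraries. Of these 8 genes, 3 lay higher in both high-fat libraries and 5 overlapped between the diets, against 26.1% higher among all genes tested. Neutrophil markers (7 genes) summed to 75.3 and 60.9 CPM in the high-fat libraries, against 103 and 107 CPM in the control libraries. S100a8, Mmp8, Mmp9 and Csf3r made up nearly all of this sum, and S100a8 and Mmp8 overlapped between the diets. S100a9, Retnlg and Camp reached at most 0.799, 1.91 and 0.0258 CPM in any library, so the sum is an uncertain measure of neutrophils. Dendritic cell markers (5 genes) summed to 2.61 and 2.48 CPM with high-fat diet, against 9.12 and 9.89 CPM with control diet, and eosinophil markers (4 genes) to 3.32 and 2.90 CPM with high-fat diet, against 7.35 and 15.6 CPM with control diet. T cell markers (4 genes) summed to 1.46 and 12.0 CPM with high-fat diet, against 1.69 and 1.91 CPM with control diet, and mesothelial markers (6 genes) to 4.67 and 1.93 CPM with high-fat diet, against 1.09 and 1.11 CPM with control diet. The part of these other cells in the values below was not tested, and in bulk RNA fewer cells of a type and less RNA per cell cannot be told apart.

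Of the 10 genes, 9 passed the filter on low counts and Dgat2 did not. In edgeR's quasi-likelihood test across 12747 genes, Agpat9 rose with high-fat diet and was the only one of the 9 to pass a Benjamini-Hochberg adjusted p of 0.05, a threshold that 0.612% of all genes tested passed, 0.322% higher and 0.290% lower. At an unadjusted p under 0.05 there were 3 of the 9, Agpat9 higher and Lpin1 and Mgll lower, against 17.0% of all genes, 8.56% higher and 8.46% lower. The diets' libraries did not overlap for 6 of the 9, with 2 higher and 4 lower in the high-fat libraries, against 51.0% of all genes, 26.1% higher and 24.9% lower. The median log2 fold change, high-fat over control, was -0.10 over the 9 genes and -0.01 over all genes tested. With 9 genes these counts and medians are given as a description, and the account below turns on single genes. DESeq2 called 3 of the 9, Agpat9, Lpin1 and Mgll, where 2.72% of all genes passed. The share of all genes that passed was 0.220% by limma-voom, 3.00% with no filter on low counts and 0.886% with the replicate numbers as a block. With 1 library left out it was 6.46% and 3.55% for high-fat replicates 1 and 2, and 0.126% and 0.0235% for control replicates 1 and 2.

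The 300 bases around the start of the 3 genes with the largest log2 fold changes are printed for reference, 250 bases before and 50 after the start, from RefSeq on GRCm38.p6. These are coordinates of another build than the mm9 positions given below, and they were used for sequence only. Capitals mark matches, on either strand, to an E-box (CACGTG), a GC box (GGGCGG) or a nuclear receptor half-site (AGGTCA). For Mgll, which has 2 annotated starts in that table, the upstream one is shown.

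Agpat9, chr5:100845979-100846278, plus strand: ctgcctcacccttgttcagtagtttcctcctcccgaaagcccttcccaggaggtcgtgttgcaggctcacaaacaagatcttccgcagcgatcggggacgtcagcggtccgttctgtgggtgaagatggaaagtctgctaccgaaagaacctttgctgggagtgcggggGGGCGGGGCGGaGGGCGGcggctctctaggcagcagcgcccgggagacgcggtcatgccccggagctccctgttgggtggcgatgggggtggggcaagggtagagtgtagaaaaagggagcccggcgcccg

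Lpin1, chr12:16610917-16611216, minus strand: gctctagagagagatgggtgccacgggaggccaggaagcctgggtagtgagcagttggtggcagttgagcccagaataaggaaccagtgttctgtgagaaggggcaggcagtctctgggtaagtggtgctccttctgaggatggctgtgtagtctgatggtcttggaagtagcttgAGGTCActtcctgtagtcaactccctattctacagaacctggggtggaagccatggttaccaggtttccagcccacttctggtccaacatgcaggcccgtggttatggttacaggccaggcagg

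Mgll, chr6:88724162-88724461, plus strand: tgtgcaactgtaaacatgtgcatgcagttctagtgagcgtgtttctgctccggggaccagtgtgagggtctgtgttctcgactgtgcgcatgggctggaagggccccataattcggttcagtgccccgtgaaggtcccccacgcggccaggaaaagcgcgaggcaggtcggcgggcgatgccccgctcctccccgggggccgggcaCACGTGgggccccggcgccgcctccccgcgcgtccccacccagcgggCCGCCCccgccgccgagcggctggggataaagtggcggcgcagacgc

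The Agpat9 window held 3 GC boxes, the first pair of which share a base, and no E-box. The Mgll window held 1 E-box and 1 GC box, and the Lpin1 window held 1 half-site and neither of the others. A GC box was found in 35.7% of 32851 RefSeq windows of this length, an E-box in 7.15% and the half-site in 16.3%. A sterol regulatory element (TCACNCCAC, in 1.24% of windows) and a CCAAT box (CCAAT, in 37.4%) were also searched on both strands, and neither run of letters occurs in the 3 windows. Such a match describes letters and not a bound site. Of the 10 genes, 8 had an entry in the table, and Dgat1 and Dgat2 did not.

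**Figure D1:**
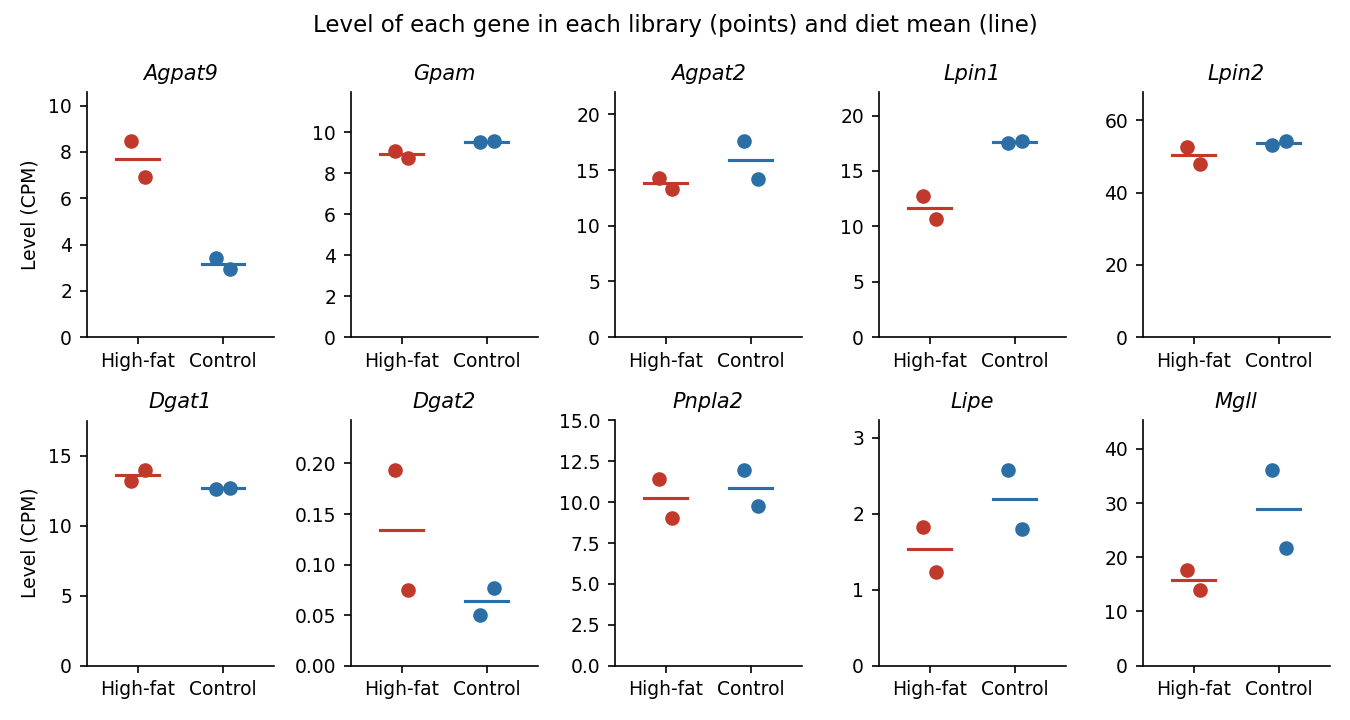
Level of each of the 10 genes in CPM on a linear axis starting at 0, with 1 point per library and a line at the mean of 2 libraries per diet. Agpat9 stood at 6.93 CPM or more in both high-fat libraries, against 3.40 CPM or less in both control libraries. Dgat1 also lay higher in both high-fat libraries, and Gpam, Lpin1, Lpin2 and Mgll lay lower in both. The diets' libraries did not overlap in 51.0% of all genes tested.

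At the first step, Agpat9 was higher with high-fat diet while Gpam did not pass the test. Agpat9 encodes a glycerol-3-phosphate acyltransferase of the endoplasmic reticulum and lies at chromosome 5: 101275248 to 101328121 (mm9, plus strand, 13 exons in 1 transcript). It had 393 and 277 counts in the high-fat libraries, against 137 and 114 counts in the control libraries, which is 8.47 and 6.93 CPM with high-fat diet, against 3.40 and 2.94 CPM with control diet. Both high-fat libraries were above both control libraries. The log2 fold change was 1.28 ± 0.19 (SE), or 2.43-fold, with a 95% interval from 1.80-fold to 3.28-fold and an adjusted p of 0.0324 by edgeR. The gene ranked 32 of 12747 by p. With the trend on GC content and exon length removed, the log2 fold change was 1.18 and the adjusted p by edgeR rounded to 0.05, at the threshold. The call ended when either control library was left out, with adjusted p = 0.116 without control replicate 1 and adjusted p = 0.142 without control replicate 2, and by limma-voom (0.0615), with log2 fold changes of 1.38, 1.18 and 1.28. Its levels ran in the same order of diets as the summed fibroblast and mesothelial markers above. The summed B cell markers did so narrowly, at 64.8 CPM in high-fat replicate 1 against 63.1 CPM in control replicate 1. The part of these cells in the difference was not tested.

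Gpam, the glycerol-3-phosphate acyltransferase of the outer mitochondrial membrane, lies at chromosome 19: 55144224 to 55173937 (mm9, minus strand). It had 9.09 and 8.74 CPM in the high-fat libraries, against 9.49 and 9.56 CPM in the control libraries. The high-fat libraries lay just below the control libraries, by less than the test could separate from their spread. Its log2 fold change was -0.10 ± 0.14 (adjusted p = 0.759), and the 95% interval, from 0.748-fold to 1.17-fold, leaves out a rise as large as the lower bound of 1.80-fold for Agpat9.

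The microsomal paralog Agpat6, now named Gpat4, had the most RNA per length of the 4 genes of this step. On the scale of CPM per kilobase of exon it held 77.5% and 78.2% of the summed level of Agpat9, Gpam, Agpat6 and Gpat2 in the high-fat libraries, against 83.1% and 81.7% in the control libraries. Agpat9 held 12.5% and 11.2% of that sum in the high-fat libraries, against 5.43% and 5.31% in the control libraries, and Gpam held 10.3% ± 0.402 with high-fat diet, against 12.2% ± 1.13 with control diet (SD, n = 2 each). With control diet Agpat9 thus had less RNA per length than Gpam, and with high-fat diet slightly more. Agpat6 itself had 72.2 and 66.3 CPM in the high-fat libraries, against 71.4 and 61.9 CPM in the control libraries, with a log2 fold change of 0.06 ± 0.11 (adjusted p = 0.812). The summed level of the step was 23.6 and 21.5 CPM per kilobase with high-fat diet, against 21.8 and 19.2 with control diet, and these overlapped. Gpat2 had 1 count in control replicate 1 and none in the other libraries.

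At the next step the RNA of Agpat2 did not pass the test. Agpat2 encodes a 1-acylglycerol-3-phosphate acyltransferase whose loss causes generalized lipodystrophy in humans, and lies at chromosome 2: 26448577 to 26459937 (mm9, minus strand, 6 exons). It had 14.3 and 13.3 CPM in the high-fat libraries, against 17.6 and 14.2 CPM in the control libraries, so the diets overlapped. The log2 fold change was -0.20 ± 0.15 (adjusted p = 0.511), and -0.08 with the trend on GC content and exon length removed. Per length, Agpat2 held 17.7% and 16.2% of the summed level of Agpat1 to Agpat5 in the high-fat libraries, against 21.1% and 19.5% in the control libraries. Agpat5 held 36.0% and 35.4% of the same sum with high-fat diet, against 27.3% and 32.1% with control diet. The sum of the 5 genes was 51.4 and 52.3 CPM per kilobase with high-fat diet, against 52.9 and 46.3 with control diet.

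Of the 3 lipins, Lpin1 and Lpin2 were detected, and neither passed the test. Lpin1 encodes a phosphatidate phosphatase that can also act as a nuclear coregulator, and lies at chromosome 12: 16542475 to 16596576 (mm9, minus strand, 3 transcripts). It had 590 and 428 counts in the high-fat libraries, against 703 and 686 counts in the control libraries, or 12.7 and 10.7 CPM against 17.5 and 17.7 CPM. Both high-fat libraries were below both control libraries. The log2 fold change was -0.58 ± 0.14, or 0.667-fold with a 95% interval from 0.535-fold to 0.832-fold, and an unadjusted p of 0.00236 became an adjusted p of 0.102. The gene passed by DESeq2 (adjusted p = 0.0393) and in edgeR without the filter on low counts (0.0199). Without high-fat replicate 1 its log2 fold change was -0.71. Lpin1, like Mgll below, ran in the same order of diets as the summed macrophage (mostly Lyz2), neutrophil, eosinophil and dendritic cell markers. The part of these cells in the difference was not tested.

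Lpin2, the more abundant phosphatidate phosphatase here, lies at chromosome 17: 71533318 to 71599158 (mm9, plus strand, 2 transcripts). It had 52.6 and 48.0 CPM in the high-fat libraries, against 53.1 and 54.3 CPM in the control libraries. The log2 fold change was -0.09 ± 0.10 (adjusted p = 0.636), and its 95% interval, from 0.804-fold to 1.09-fold, was the narrowest of the 9 genes on the log2 scale. Per length, Lpin1 held 19.2% ± 0.862 of the summed level of the lipins with high-fat diet, against 25.1% ± 0.150 with control diet (SD, n = 2 each), and Lpin2 held the rest. Lpin3 had no count in any library. The summed level was 10.6 ± 0.806 CPM per kilobase with high-fat diet, against 12.2 ± 0.175 with control diet (SD, n = 2 each). The difference between the responses of Lpin1 and Lpin2 was not tested.

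**Figure D2:**
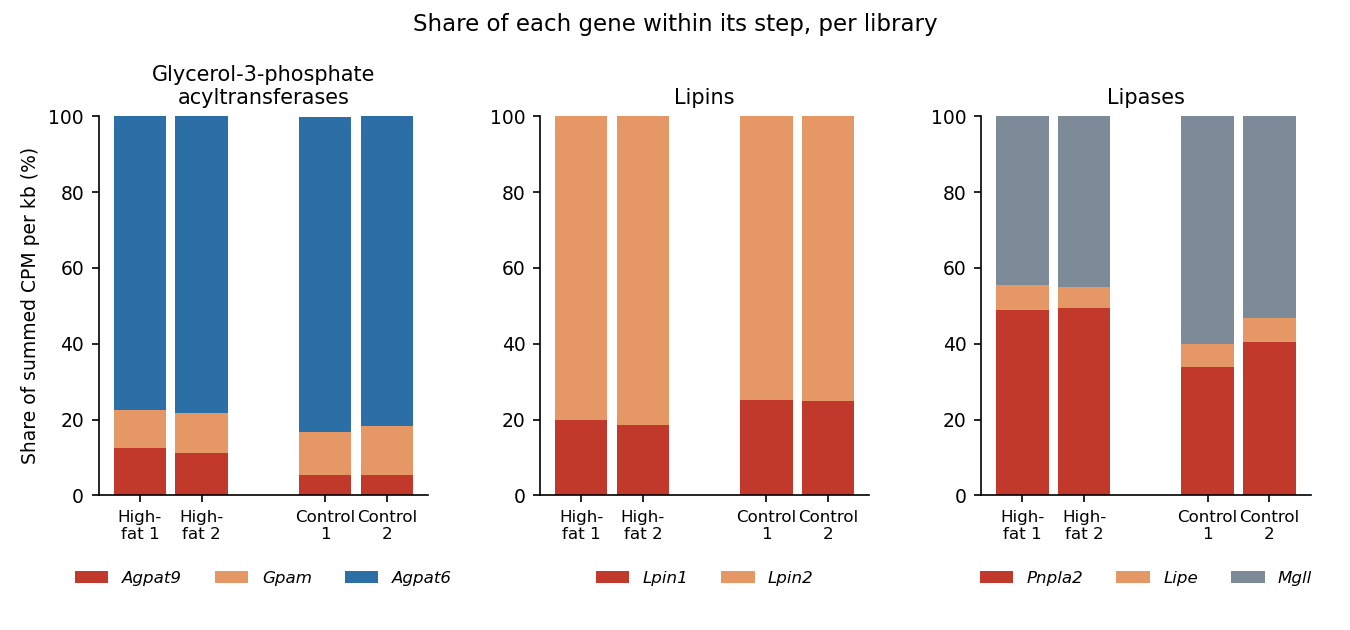
Share of each gene, in percent of the summed CPM per kilobase of its step, in each of the 4 libraries, with high-fat libraries on the left. Agpat9 took 12.5% and 11.2% of the glycerol-3-phosphate acyltransferase level with high-fat diet, against 5.43% and 5.31% with control diet, and Agpat6 held most of that step in every library.

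Nearly all RNA of the last step of synthesis came from Dgat1 in both diets. Dgat1 and Dgat2 encode diacylglycerol acyltransferases of unrelated protein families, and both complete a triglyceride. Dgat1 lies at chromosome 15: 76332445 to 76342248 (mm9, minus strand, 17 exons) and had 13.2 and 14.0 CPM in the high-fat libraries, against 12.6 and 12.7 CPM in the control libraries. The high-fat libraries were above the control libraries by a small margin, with a log2 fold change of 0.10 ± 0.13 (adjusted p = 0.715) and a 95% interval from 0.872-fold to 1.32-fold. Dgat2, at chromosome 7: 106302173 to 106331223 (mm9, minus strand, 8 exons), had 9 and 3 counts in the high-fat libraries, against 2 and 3 counts in the control libraries. The exact Poisson 95% intervals, which cover counting error only, were 4.12 to 17.1 and 0.619 to 8.77 counts in the high-fat libraries, against 0.242 to 7.22 and 0.619 to 8.77 counts in the control libraries. These overlap, but such an overlap is no test of a diet difference. In edgeR with no filter on low counts, Dgat2 had a log2 fold change of 1.08 ± 0.99 (adjusted p = 0.664). A diet difference was thus not detected at this depth. Dgat1 made up 98.9% and 99.6% of the summed per-length level of both genes with high-fat diet, against 99.7% and 99.5% with control diet.

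None of the 3 lipases passed the test, and Mgll had the log2 fold change of largest size among them. Pnpla2 encodes adipose triglyceride lipase, which takes the first fatty acid from triglyceride, and lies at chromosome 7: 148641087 to 148646642 (mm9, plus strand, 3 transcripts). It had 11.4 and 9.06 CPM in the high-fat libraries, against 12.0 and 9.79 CPM in the control libraries. The diets overlapped, and the log2 fold change was -0.09 ± 0.17 (adjusted p = 0.811), with a 95% interval from 0.718-fold to 1.23-fold. The sign of this value turned when control replicate 1 (0.06) or high-fat replicate 2 (0.07) was left out, and with the trend on GC content and exon length removed (0.10).

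Lipe encodes hormone-sensitive lipase, which prefers diacylglycerol and also splits cholesteryl esters, and lies at chromosome 7: 26164546 to 26181006 (mm9, minus strand, 11 exons). It had only 85 and 49 counts in the high-fat libraries, against 104 and 70 counts in the control libraries, or 1.83 and 1.23 CPM against 2.58 and 1.80 CPM. The diets overlapped, and the log2 fold change of -0.52 ± 0.31 (adjusted p = 0.420) had a 95% interval from 0.433-fold to 1.13-fold. With the trend on GC content and exon length removed, Lipe was at -0.29. Its exons overlap those of the noncoding gene 4732471J01Rik on the opposite strand, which had 17 and 11 counts in the high-fat libraries, against 25 and 25 counts in the control libraries. The sources used here do not say whether reads were counted by strand, so the value of Lipe is uncertain.

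Mgll encodes monoglyceride lipase, which frees the last fatty acid and also degrades the endocannabinoid 2-arachidonoylglycerol, and lies at chromosome 6: 88674406 to 88778354 (mm9, plus strand, 4 transcripts). It had 821 and 560 counts in the high-fat libraries, against 1457 and 847 counts in the control libraries. In CPM these were 17.7 and 14.0 with high-fat diet, against 36.2 and 21.8 with control diet. Both high-fat libraries were below both control libraries, but the control libraries differed from each other more than the nearest libraries of different diets did. The log2 fold change was -0.87 ± 0.26, or 0.547-fold with a 95% interval from 0.350-fold to 0.855-fold, and an unadjusted p of 0.0167 became an adjusted p of 0.206. The value was -0.47 without control replicate 1 and -1.19 without control replicate 2. Without high-fat replicate 1 the value was -1.05, and without high-fat replicate 2 it was -0.71. Mgll passed by DESeq2 (adjusted p = 0.00446), where 2.72% of all genes passed.

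Within the summed per-length level of the 3 lipases, Mgll held 44.5% and 44.9% in the high-fat libraries, against 60.0% and 53.2% in the control libraries. Pnpla2 held 49.0% and 49.5% with high-fat diet, against 34.0% and 40.6% with control diet, although its own level overlapped between the diets. Lipe held 6.51% and 5.56% with high-fat diet, against 6.05% and 6.21% with control diet. The sum was 8.59 and 6.74 CPM per kilobase in the high-fat libraries, against 13.0 and 8.87 in the control libraries. With the longest transcript taken as the length, Mgll held a mean of 48.4% and Pnpla2 of 45.9% with high-fat diet, so which of them had more RNA per length in those libraries depends on the length used.

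**Figure D3:**
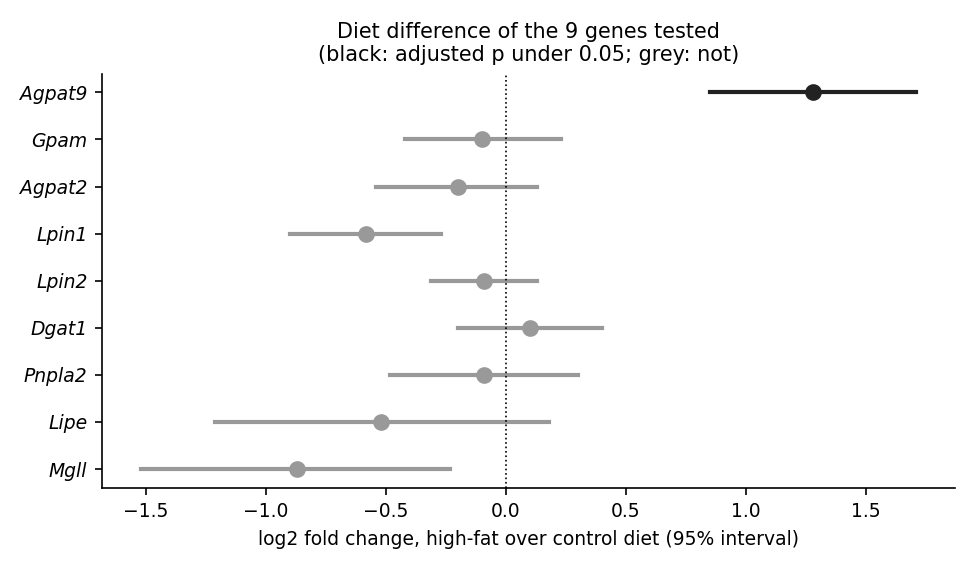
Log2 fold change, high-fat over control diet, of the 9 genes that passed the filter on low counts, with 95% intervals from edgeR's quasi-likelihood fit, black where the adjusted p was under 0.05. Agpat9 lies at 1.28 and is the only one in black, and the intervals of Lpin1 and Mgll lie below 0 before adjustment for the number of genes.

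Among the 10 genes, levels per length over all 4 libraries were highest for Agpat2, with a mean of 9.43 CPM per kilobase, followed by Lpin2 at 8.86, Dgat1 at 7.49, Mgll at 4.85 and Pnpla2 at 3.90. Lpin1 at 2.56, Gpam at 2.41 and Agpat9 at 1.89 came next, then Lipe at 0.569 and Dgat2 at 0.0440. Over the range of the 4 libraries, Agpat2 overlapped Lpin2, Dgat1 overlapped Mgll, and Mgll overlapped Pnpla2 and Lpin1. Except for Mgll and Lpin1, the order within these pairs is thus not set over all libraries together. With high-fat diet Dgat1 (7.52 and 7.99 CPM per kilobase) was above Mgll (3.82 and 3.03). With control diet Mgll (7.82 and 4.71) was above Pnpla2 (4.43 and 3.60). Mgll was above Lpin1 within each diet, and so in every library. Lpin1, Gpam and Agpat9 overlapped over the 4 libraries but kept an order within each diet. With high-fat diet Agpat9 (2.94 and 2.41 CPM per kilobase) was above Gpam (2.37 and 2.28) and Gpam above Lpin1 (2.22 and 1.87), whereas with control diet Lpin1 (3.05 and 3.09) was above Gpam (2.48 and 2.50) and Gpam above Agpat9 (1.18 and 1.02). Lpin2 stood apart from Dgat1, Pnpla2 from Lpin1, Agpat9 from Lipe and Lipe from Dgat2.

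Of 21 other genes of glycerolipid synthesis, 17 were tested and none passed in edgeR, against 1 higher by DESeq2, and an unadjusted p under 0.05 was reached by 2 higher and 2 lower. The median log2 fold change of the 17 was 0.04. For this list and those below, the shares of all genes were 0.612% passing in edgeR and 2.72% by DESeq2. At an unadjusted p under 0.05 in edgeR the share was 17.0%. Aqp9, a channel that lets glycerol into cells, had 11.3 and 14.3 CPM in the high-fat libraries, against 8.22 and 6.18 CPM in the control libraries (log2 fold change 0.83 ± 0.19, adjusted p = 0.0831 by edgeR and 0.0118 by DESeq2). Agpat5 had 70.8 and 71.0 CPM in the high-fat libraries, against 55.2 and 56.8 CPM in the control libraries (0.34 ± 0.09, adjusted p = 0.130). In both genes the libraries of the diets did not overlap, as in 51.0% of all genes tested. Cds2, which draws phosphatidate towards phosphatidylinositol, had a log2 fold change of -0.28 ± 0.10. Acsl3, a long-chain acyl-CoA synthetase found on nascent droplets, had one of -0.39 ± 0.15, and its exons overlap Utp14b.

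Of 15 other lipases and lipase regulators, 11 were tested and none passed in edgeR, against 1 lower by DESeq2, and an unadjusted p under 0.05 was reached by 0 higher and 2 lower. The median log2 fold change of the 11 was -0.02. Lpl, the lipase that frees fatty acids from circulating lipoproteins, had 2910 and 2670 CPM in the high-fat libraries, against 3830 and 3720 CPM in the control libraries (log2 fold change -0.44 ± 0.12, adjusted p = 0.141 by edgeR and 0.00400 by DESeq2). Abhd5, the coactivator of adipose triglyceride lipase, had 162 and 163 CPM in the high-fat libraries, against 139 and 150 CPM in the control libraries (0.17 ± 0.09, adjusted p = 0.384). Per length its level, at a mean of 48.8 CPM per kilobase over the 4 libraries, was above that of Pnpla2 at 3.90. Ddhd1, a phospholipase that prefers phosphatidate, had a log2 fold change of -0.44 ± 0.13, and Lipg, endothelial lipase, one of -0.80 ± 0.48; the exons of Ddhd1 overlap Mir5131, which had no count. G0s2, an inhibitor of adipose triglyceride lipase, had 3 and 2 counts in the high-fat libraries, against 1 and 1 in the control libraries, and was named after its values were seen.

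Of 12 lipid droplet proteins, 5 were tested and none passed in edgeR, against 1 higher by DESeq2, and an unadjusted p under 0.05 was reached by 1 higher and 0 lower. The median log2 fold change of the 5 was 0.20. Hilpda, a droplet protein that inhibits adipose triglyceride lipase, had 240 and 241 CPM in the high-fat libraries, against 150 and 184 CPM in the control libraries (log2 fold change 0.53 ± 0.11, adjusted p = 0.0757 by edgeR and 0.00493 by DESeq2). Plin2, the main droplet coat protein of macrophages, had 2900 and 2330 CPM in the high-fat libraries, against 2290 and 2130 CPM in the control libraries (0.24 ± 0.14, adjusted p = 0.399). Plin3 and Fitm2 had log2 fold changes of 0.11 ± 0.10 and 0.20 ± 0.24, and the exons of Fitm2 overlap 2310001K24Rik on the other strand.

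Of 12 transcription factors listed for the pathway, 10 were tested and none passed in edgeR, against 1 lower by DESeq2, and an unadjusted p under 0.05 was reached by 0 higher and 3 lower. The median log2 fold change of the 10 was -0.36, and 9 of them lay below 0, against 6478 of 12747 genes tested. Srebf1, which drives fatty acid and glycerolipid synthesis genes, had 7.86 and 7.33 CPM in the high-fat libraries, against 15.3 and 11.4 CPM in the control libraries (log2 fold change -0.81 ± 0.17, adjusted p = 0.0705 by edgeR and 0.00770 by DESeq2), and its exons overlap Rai1 on the other strand. Srebf2, the sterol-responsive relative, had 13.3 and 13.5 CPM in the high-fat libraries, against 24.2 and 16.4 CPM in the control libraries (-0.60 ± 0.18, adjusted p = 0.168). Nr1h2, the LXR beta receptor, had a log2 fold change of -0.50 ± 0.20. Pparg, a receptor whose targets in fat cells include several of the 10 enzymes, had -0.26 ± 0.12. With the trend on GC content and exon length removed, the values were -0.54 for Srebf1, -0.33 for Srebf2 and -0.29 for Nr1h2. That of Pparg was then larger in size, at -0.37. Srebf2 was at -0.30 without control replicate 1 and at -0.85 without control replicate 2. The part of that trend or of single libraries in these falls was not tested.

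**Figure D4:**
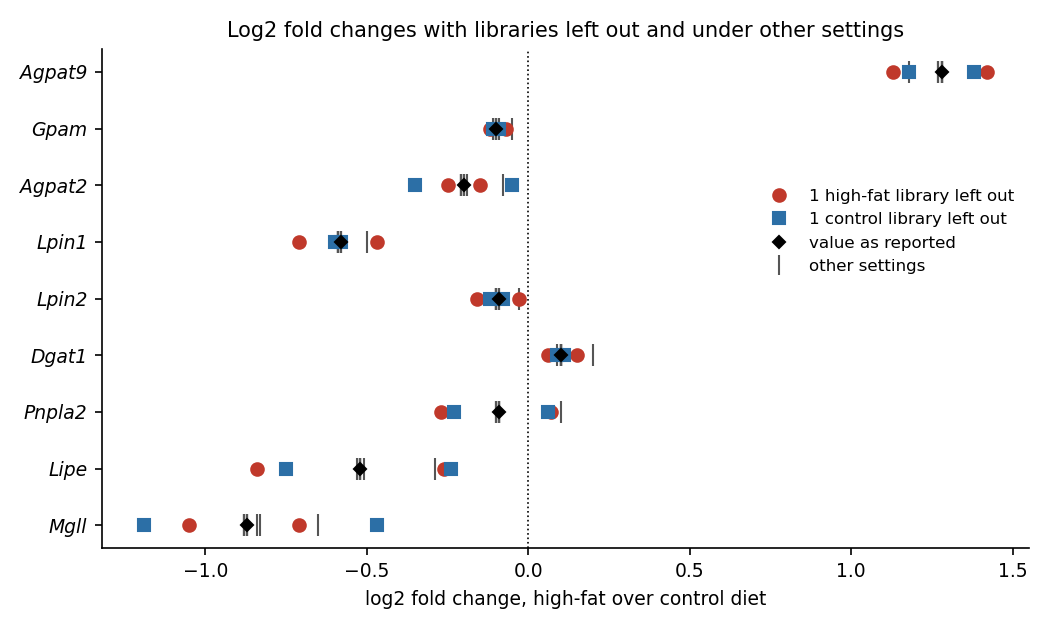
Log2 fold change, high-fat over control diet, of the 9 genes tested as reported (black diamonds), with 1 high-fat library left out (red circles), with 1 control library left out (blue squares) and under the other settings tried (grey ticks). Agpat9 stayed between 1.13 and 1.42, Mgll moved between -1.19 and -0.47 with the control library left out, and Pnpla2 lay on both sides of 0.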

How the data were processed

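The authors deposited raw counts per gene, 1 table per library, on RefSeq and assembled gene models of mm9. Per the submitters' processing notes the tools were TopHat2 2.0.10, Cufflinks 2.1.1 and HTSeq, with settings (strand among them) that the sources used here do not give. Each table ends in 5 summary lines, which were left out of totals and tests: 37.5% to 48.5% of the sum of a table was multiply aligned, 13.5% to 15.0% outside gene models and 0.664% to 0.823% ambiguous between genes.

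Genes were kept by filterByExpr (minimum count 10, minimum total 15) and tested with edgeR 4.0.16 (TMM, robust quasi-likelihood fit, diet as the only term, 2 residual degrees of freedom), with Benjamini-Hochberg adjustment over all kept genes at 0.05. SE values follow from the log2 fold change and the square root of F, and 95% intervals use the moderated degrees of freedom. Levels per length divide CPM by the union exon length of the deposited models. Replicates differed by more than sampling noise (chi-square per degree of freedom 34.9 between high-fat and 33.8 between control libraries). Alternatives used DESeq2 1.42.0, limma 3.58.1 (voom), other scalings and filters, a replicate block, left-out libraries, other sets of gene models and a loess offset (span 0.5) on exon length and GC content of GENCODE transcripts, available for 97.8% of RefSeq genes. The edgeR fit was tested on simulated data.

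The genes and lists were chosen with earlier results of these data known. All 10 enzymes are named. From each of the other 4 lists, genes past the threshold, or else up to 4 with the smallest p, are named, and paralogs wherever a share is given.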

Additional observations from a re-analysis of the deposited data

How the results depend on the processing

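Of 134 refits of single enzymes, 121 kept their direction and side of the threshold. The call of Agpat9 (log2 fold change 1.28) ended by limma-voom (1.28) and without either control library, with values from 1.13 to 1.42 over the 4 left-out libraries. It lay at the threshold with the trend on GC content and exon length removed (1.18). With all 4 libraries kept, Lpin1 passed by DESeq2 (-0.59) and without the filter on low counts (-0.59). It ran from -0.71 to -0.47 over the left-out libraries. With all 4 libraries kept, Mgll passed by DESeq2 (-0.87) and with the replicate block (-0.84). It ran from -1.19 to -0.47 over the left-out libraries. Pnpla2 turned its sign with the trend on GC content and exon length removed (0.10) and ran from -0.27 to 0.07 over the left-out libraries. The causes were not tested. A refit with 1 library in a diet assumes that it varies like those of the other diet.

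Across the whole table the count of calls was 78 as reported, 356 by DESeq2, 28 by limma-voom, 522 with no filter on low counts, 46 with a CPM filter and 3 to 823 with 1 library left out (823 and 452 for high-fat replicates 1 and 2, 16 and 3 for control replicates 1 and 2). Of the enzymes, 1 was called as reported, 3 by DESeq2, 0 by limma-voom, 2 with no filter on low counts, 2 with the replicate block and 0 to 3 with 1 library left out. Calls in the list of other glycerolipid synthesis genes went to 1 by DESeq2 and 1 with no filter on low counts, and from 0 to 1 with 1 library left out. In the list of other lipases they went to 1 by DESeq2, 1 with no filter on low counts and 0 to 2 with 1 library left out. In the droplet list they went to 1, 1 and 0 to 1 under the same settings, and in the transcription factor list to 1, 2 and 0 to 1.

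Same-numbered libraries deviated together with a correlation of 0.0888 over genes, so little deviation was shared. The labels do not say whether the numbers pair the libraries, and 2 libraries per diet cannot settle it. The replicate block gave 113 calls across the table, with Mgll at an adjusted p of 0.0482 by edgeR.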
